A study of Schizosaccharomyces pombe with 6 samples.

Results

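The transcriptome of growing wild-type fission yeast (Schizosaccharomyces pombe) was described from the 2 wild-type RNA-seq libraries of a study with 6 libraries. All 7001 of the 7001 features of the expression table were kept, so the description covers every listed gene and is limited only to the wild-type cells. The study compared 3 strains in 2 biological replicates each. The mug174Δ cells lack the coilin-related protein of nuclear Cajal bodies. The red1Δ cells lack a subunit of the nuclear complex that removes meiotic mRNAs in growing cells. The remaining strain was wild type (WT). All cells were growing vegetatively in YES, a rich medium of yeast extract and glucose with adenine, histidine, leucine and uracil added, at 32 °C, and total RNA was taken from whole cells. No source used here names the mating type or the marker genotype of the strains that were sequenced.

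Fission yeast in rich glucose medium divides quickly and is known to spend much of its transcription on ribosomes and on glycolysis, which it runs as a fermentation that ends in ethanol. Sexual differentiation, meiosis and spore formation are held back in such cells and start when nitrogen runs out. Genes for the uptake of iron, phosphate and thiamine, and for carbon sources other than glucose, are known to be kept low while these nutrients are plentiful.

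The values were deposited as RPKM, read counts scaled to the length of the feature and to the total of the library, and every value could be turned back into a whole number of reads. The 6 libraries held between 16565908 and 18627129 reads assigned to features, of which WT replicate 1 held 18310074 and WT replicate 2 held 17348189. For a feature of 1000 bases, a floor of 3 reads corresponded to 0.164 RPKM in WT replicate 1 and 0.173 RPKM in WT replicate 2. Such floors cover counting error only. The deleted genes matched their labels, since mug174 had 0.0321 and 0 RPKM in mug174Δ cells, against 21.5 and 20.1 RPKM in WT cells, and red1 had 0.0270 and 0.0541 RPKM in red1Δ cells, against 62.7 and 57.1 RPKM in WT cells. The uracil synthesis gene ura4 (SPCC330.05c, chrIII:115781-116575), often deleted in laboratory strains so that uracil can be used for selection, was listed at 0 in all 6 libraries, WT included, where 3 reads would have given 0.206 and 0.218 RPKM.

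Protein-coding genes held nearly all of the wild-type reads. The 5155 coding genes outside the mitochondrial genome took 92.4% of the reads in WT replicate 1 and 92.6% in WT replicate 2 (92.5% ± 0.14, SD, n = 2). The 49 ribosomal RNA features followed with 6.25% and 5.93% of the reads (6.09% ± 0.22), and the 1529 long non-coding RNAs (ncRNAs) with 1.32% and 1.44% (1.38% ± 0.082). The small nucleolar RNAs (snoRNAs), which guide the modification and cutting of ribosomal RNA, took 0.0117% and 0.0133%. The other classes were close to empty, with 128 and 140 reads for the 11 coding genes of the mitochondrial genome, 53 and 36 reads for 196 tRNA genes, of which 170 were listed at 0 in both libraries, and 24 and 20 reads for 7 spliceosomal snRNAs. Counted per length, as a share of the summed RPKM, coding genes took 95.8% and ribosomal RNA 2.74%. The labels name ribosomal RNA depletion, and the study's methods name poly(dT) enrichment. The part of either step in the shares of the classes was not tested.

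Among the ribosomal RNA features, the 3 copies of the 28S RNA held 70.7% of the ribosomal RNA reads in WT replicate 1 and 62.3% in WT replicate 2, and the 5 copies of the 18S RNA held 28.1% and 36.4%. These copies share nearly all of their sequence, so the division between copies is uncertain. The 36 dispersed 5S genes, which are transcribed one by one outside the main repeat, took 0.0104% and 0.0101% of the ribosomal RNA reads, and 13 of them were listed at 0. The highest snoRNA was snoU14 (229 and 283 RPKM), followed by snR30 (65.8 and 94.1 RPKM) and snR101 (75.4 and 67.4 RPKM). The highest ncRNAs were SPNCRNA.1095 (1482 and 2581 RPKM), SPNCRNA.1094 (1397 and 2476 RPKM) and prl53 (840 and 1074 RPKM), and all 3 were higher in WT replicate 2. The neighbours SPNCRNA.1094 and SPNCRNA.1095 alone took 8.28% and 13.3% of all ncRNA reads. Most ncRNAs were rare, and the 435 that overlap no other listed feature had a median of 2.79 RPKM, against 65.8 RPKM for coding genes of the same kind.

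Enzymes of glycolysis were the highest coding genes. Fructose-bisphosphate aldolase fba1 (SPBC19C2.07) reached 12047 and 11899 RPKM, and glyceraldehyde-3-phosphate dehydrogenase tdh1 (SPBC32F12.11) reached 11599 and 11511 RPKM. Behind them came the phosphoglycerate mutase gpm1 (9279 and 8887 RPKM), the enolase eno101 (7626 and 7582 RPKM) and the triosephosphate isomerase tpi1 (6959 and 7338 RPKM). The pyruvate decarboxylase pdc101, which makes acetaldehyde from pyruvate in fermentation, had 5866 and 6008 RPKM, and the phosphoglycerate kinase pgk1 had 5139 and 5061 RPKM. Of the 15 highest coding genes, 7 were thus enzymes of this one pathway, and their levels lay close together in the 2 libraries.

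The other 8 of the 15 highest genes served translation. Elongation factor EF-1 alpha, which brings aminoacyl-tRNA to the ribosome, was present as tef101 (6930 and 6875 RPKM) and tef103 (6283 and 6159 RPKM), whose coding sequences are near-identical copies, so their separate values are uncertain. The ribosomal protein genes among the 15 were rps13 (6008 and 6024 RPKM), rpl1901 (5165 and 5721 RPKM), rpl6 (5175 and 5605 RPKM), rps102 (5383 and 5354 RPKM) and rps2 (4950 and 5402 RPKM). The last one, ubi3 (5758 and 5762 RPKM), encodes ubiquitin fused to a ribosomal protein.

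The reads were concentrated in few genes. Ranked by reads, the first gene held 1.39% of the coding reads, the first 10 held 9.35%, the first 100 held 32.4% in WT replicate 1 and 32.9% in WT replicate 2 (32.7% ± 0.35, SD, n = 2), and the first 1000 held 73.9%. It took 277 genes in WT replicate 1 and 264 genes in WT replicate 2 to reach 50% of the coding reads, and 89 of the 100 most read genes were shared by the libraries. Of the 100 most read genes, 48 were cytosolic ribosomal protein genes, 10 were translation factors, 10 were enzymes of glycolysis and fermentation, 5 were chaperones, and 1 was from the cytoskeleton list. At the other side of the distribution, 5% of the coding genes with no overlapping feature lay under 10.4 RPKM, 25% under 33.8 RPKM, 75% under 143 RPKM and 95% under 778 RPKM.

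**Figure D1:**
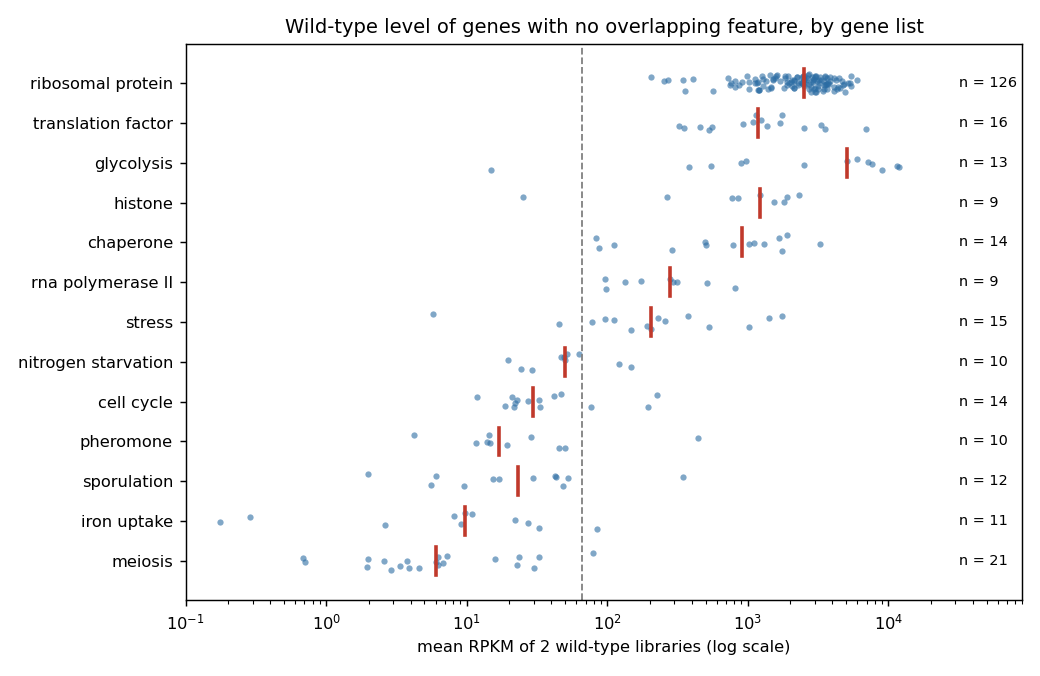
Wild-type level of coding genes with no overlapping feature, by gene list, with the mean RPKM of the 2 WT libraries on a log axis and 1 point per gene. Red bars mark the median of each list and the dashed line the median of all coding genes with no overlap (65.8 RPKM). Ribosomal protein genes lie around 2504 RPKM and glycolysis around 5100 RPKM, while meiosis genes lie around 6.03 RPKM.

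Ribosomal protein genes were high as a class. The 126 ribosomal protein genes with no overlapping feature had a median of 2504 RPKM (2453 RPKM in WT replicate 1 and 2609 RPKM in WT replicate 2), and all 126 stood above the median of 65.8 RPKM of coding genes. As a list of 138 genes, of which 9 were listed at 0 in both libraries, they took 18.2% and 19.4% of all coding reads. Even the lowest of the 126, rps29 with 199 and 208 RPKM, rpl3002 with 245 and 261 RPKM, and rpl1603 with 262 and 280 RPKM, were above the median gene. Paralogs of the last pair were higher, with 2201 and 2377 RPKM for rpl3001 and 2901 and 2887 RPKM for rpl1602, and reads shared between near-identical copies make single paralogs uncertain. Translation factors had a median of 1189 RPKM over 16 genes, from tif471 (eIF4G, which bridges the mRNA cap and the ribosome) at 349 and 296 RPKM to tef101.

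Glycolysis and fermentation spanned a wide range. The 13 genes with no overlap had a median of 5100 RPKM, and the list took 7.74% and 7.80% of the coding reads. The first steps of sugar breakdown lay lower than the enzymes named above, with 379 and 385 RPKM for hexokinase hxk1, 872 and 924 RPKM for hexokinase hxk2, and 555 and 545 RPKM for phosphofructokinase pfk1, which commits sugar to the pathway. Isoforms of 1 enzyme stood far apart: the pyruvate decarboxylase pdc201 had 16.2 and 13.8 RPKM beside the far higher pdc101. The isoforms pdc102, pdc202 and eno102 cannot be placed in this order, because other listed features cover at least 90% of their coding bases. The alcohol dehydrogenase adh1 is fully overlapped and was listed at 0, so it adds no reads to the share of the list. Among the hexose transporter genes with no overlap, ght8 had 707 and 742 RPKM, ght5 had 207 and 265 RPKM and ght2 had 52.6 and 54.1 RPKM, whereas the gluconate transporter ght3 had 1.70 and 1.24 RPKM, and ght6, fully overlapped and listed at 0, could not be placed.

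Other lists of growing cells were also high. Histones had a median of 1229 RPKM over 9 genes, led by the H2B gene htb1 (2362 and 2252 RPKM), and the centromere-specific H3 variant cnp1 stood at the low end with 22.4 and 28.1 RPKM. The histone H3 and H4 genes are near-identical copies, so their division is uncertain. Chaperones had a median of 904 RPKM over 14 genes, led by the ribosome-bound Hsp70 sks2 (3276 and 3202 RPKM), while the heat-inducible ssa1 (103 and 72.3 RPKM) and hsp104 (92.5 and 73.1 RPKM) were among the lowest of them. All 14 chaperone genes were lower in WT replicate 2, with 1578 and 1040 RPKM for hsp90 and 2016 and 1320 RPKM for the Hsp70 gene ssa2, and the list took 2.27% and 1.86% of the coding reads. Actin, act1, had 2807 and 3086 RPKM. RNA polymerase II subunits had a median of 282 RPKM, proteasome subunits 240 RPKM, mitochondrial ribosomal proteins 116 RPKM, and splicing factors named prp or cwf 66.5 RPKM, close to the median of all coding genes.

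Regulators of the cell cycle were low by comparison. The 14 genes with no overlap had a median of 29.8 RPKM, and 3 of them lay above the coding median. The mitotic cyclin cdc13 had 235 and 216 RPKM and the ribonucleotide reductase cdc22, needed to make DNA precursors, had 201 and 191 RPKM. The mitotic activator cdc25 had 17.8 and 19.4 RPKM, and the cyclin puc1 had 9.91 and 13.8 RPKM. In cultures where cells of all cycle stages are mixed, a level averages over the stages.

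Most ribosomal protein genes carry a short promoter element, shown here because it marks the genes that hold the most reads as a class. HomolD, with the letters CAGTCACA, is known as the fission yeast element that stands in for a TATA box in ribosomal protein genes, and HomolE, which contains ACCCTAC, often lies next to it. The 150 bases before the RefSeq gene start (assembly ASM294v3) were searched on both strands in 5142 coding genes. They are printed for 3 of the 4 highest ribosomal protein genes, picked because their windows hold a motif, with rpl1901 left out by choice. The 3 windows are picked examples, and no share is read from them. Matches to CAGTCACA, to its core CAGTCAC, to ACCCTAC and to TATAAA stand in capitals. A match on the reverse strand stands as its reverse complement. The windows are chrI:2746693-2746842 on the minus strand for rps13, chrIII:1436973-1437122 on the plus strand for rpl6, and chrI:898963-899112 on the minus strand for rps102.
rps13: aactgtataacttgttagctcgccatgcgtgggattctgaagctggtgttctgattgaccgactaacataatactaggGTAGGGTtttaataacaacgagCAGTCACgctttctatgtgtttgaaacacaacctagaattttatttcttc
rpl6: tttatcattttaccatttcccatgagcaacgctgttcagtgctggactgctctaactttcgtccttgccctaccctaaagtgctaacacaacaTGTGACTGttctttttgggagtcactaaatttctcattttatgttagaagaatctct
rps102: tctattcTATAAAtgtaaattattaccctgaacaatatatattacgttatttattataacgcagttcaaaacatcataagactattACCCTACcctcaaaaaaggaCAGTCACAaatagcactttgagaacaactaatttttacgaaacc

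Each of these 3 windows holds the core CAGTCAC, in 1 of them, that of rpl6, on the reverse strand. CAGTCACA, which contains the core, was found before 88 of 138 ribosomal protein genes (63.8%), against 126 of all 5142 genes (2.45%). The core CAGTCAC was found before 126 of 138 (91.3%), against 209 of 5142 (4.06%), and ACCCTAC before 44 of 138 (31.9%), against 103 of 5142 (2.003%). TATAAA went the other way, with 20 of 138 ribosomal protein genes (14.5%), against 1495 of 5142 genes (29.1%). The 134 core matches in ribosomal protein promoters began at a median of 52 bases before the gene start (quartiles 47.2 and 56), 88 of them forward and 46 reverse. Among all coding genes with no overlap, the 182 with the core had a median of 1835 RPKM, and the 4090 without it had a median of 63.0 RPKM. Without ribosomal protein genes the medians were 280 RPKM for 68 genes with the core and 62.7 RPKM for 4078 genes without it. A match is only a string of letters in a fixed window.

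**Figure D2:**
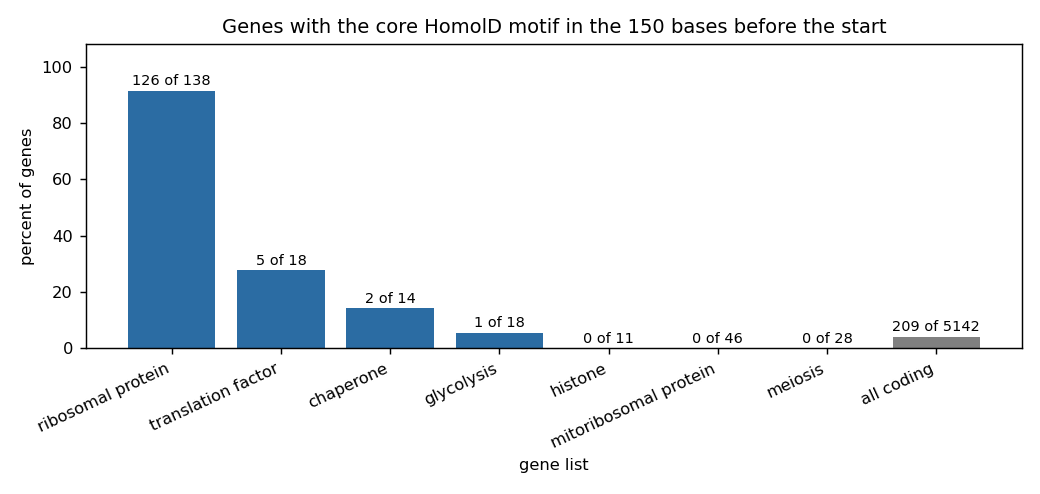
Share of genes with the core HomolD letters CAGTCAC, on either strand, in the 150 bases before the gene start, by gene list, with the number of genes above each bar. Ribosomal protein genes stand at 91.3%, translation factors at 27.8%, and all coding genes (grey bar) at 4.06%.

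The 38 genes outside the ribosomal protein list whose window holds CAGTCACA included further parts of the translation apparatus. Those with no overlap and the highest levels were tpi1, tef101, tma19 (3778 and 3959 RPKM), which encodes a ribosome-associated protein known as TCTP in animals, sks2, and the ubiquitin fusion genes uep1 (3094 and 3201 RPKM) and ubi5 (3164 and 3049 RPKM), which each end in a ribosomal protein. Next came ilv5 of branched amino acid synthesis (3000 and 2997 RPKM), the helicase eIF4A tif1 (2573 and 2421 RPKM), sam1, which makes S-adenosylmethionine (1815 and 1945 RPKM), and elongation factor tef3 (1742 and 1674 RPKM). No meiosis gene of 28, no histone of 11 and no mitochondrial ribosomal protein gene of 46 held even the core.

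The glycolysis genes at the top had other promoters. The windows are chrII:1688171-1688320 for fba1, chrII:2807445-2807594 for tdh1, and, as a contrast, chrI:5512607-5512756 for SPAC869.03c, the coding gene of at least 1000 bases with no overlap that had the lowest wild-type level, all on the plus strand. For SPAC869.03c the RefSeq start is the first coding base. Capitals mark the same letters as above.
fba1: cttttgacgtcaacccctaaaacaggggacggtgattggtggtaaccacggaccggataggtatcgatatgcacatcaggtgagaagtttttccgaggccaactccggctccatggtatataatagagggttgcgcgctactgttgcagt
tdh1: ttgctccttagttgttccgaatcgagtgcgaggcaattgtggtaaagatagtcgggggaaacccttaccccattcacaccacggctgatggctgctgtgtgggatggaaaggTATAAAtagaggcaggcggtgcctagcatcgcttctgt
SPAC869.03c: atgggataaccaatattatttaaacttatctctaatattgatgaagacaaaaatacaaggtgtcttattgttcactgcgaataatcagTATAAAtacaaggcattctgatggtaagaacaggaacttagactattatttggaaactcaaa
TATAAA was found in 9 of 18 glycolysis windows, among them that of tdh1, and the core of HomolD in 1 of 18, that of tpi1. The window of fba1 holds none of the 4 strings. The window of SPAC869.03c also holds TATAAA, and over all genes with no overlap the median was 65.3 RPKM with TATAAA and 66.2 RPKM without it.

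Introns of ribosomal protein genes were longer than others and began with a few donor strings more often. Over 5089 RefSeq introns between coding segments the median length was 55 bases, and over the 84 in ribosomal protein genes it was 84.5 bases. The donor site GTAAGT opened 27.4% of all introns and 52.4% of those in ribosomal protein genes, GTATGT opened 19.8% and 28.6%, and TAG closed 68.1% and 90.5%. The introns of rpl8 (chrII:2045498-2045563, plus strand, 4722 and 5019 RPKM), rpl1202 (chrIII:627698-627792, minus strand, 4523 and 4767 RPKM) and rps2602 (chrI:2793253-2793352, minus strand, 4166 and 4582 RPKM) are printed as the single introns of at most 120 bases in the highest ribosomal protein genes, with the first 6 and the last 3 bases in capitals.
rpl8: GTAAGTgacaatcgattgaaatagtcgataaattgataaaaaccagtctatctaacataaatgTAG
rpl1202: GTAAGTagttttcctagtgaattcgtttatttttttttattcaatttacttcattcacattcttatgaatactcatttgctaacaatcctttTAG
rps2602: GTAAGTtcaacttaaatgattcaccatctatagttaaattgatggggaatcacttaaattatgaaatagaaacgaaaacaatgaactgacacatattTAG

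A value of 0 could not be read as silence without the position of the gene. In both WT libraries 357 of 5155 coding genes were listed at 0, and 344 of them were at 0 in all 6 libraries. Among these were genes of core functions, such as the ribosomal protein genes rps20, rpl1801 and rpl902, the alcohol dehydrogenase adh1, which makes the ethanol of fermentation, the histone H2A gene hta1, the RNA polymerase II subunit rpb9, the proteasome subunit rpt5, the cohesin subunit psm3 and the splicing helicases prp22 and cdc28. All of these genes lie fully inside another listed feature, mostly an ncRNA on the opposite strand.

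The zeros followed this overlap almost without exception. Of 341 coding genes whose coding bases all lie within another listed feature, 339 were listed at 0 in both libraries. The exceptions were arg4 (4.69 and 5.64 RPKM), a gene of arginine synthesis, and ggc1 (0.544 and 0.830 RPKM), a mitochondrial carrier gene. The covering feature was on the opposite strand for 330 genes, of which 328 were at 0, and on the same strand for 12, of which 12 were at 0, some genes being covered by several features. The covering feature was an ncRNA for 353 of the 357 genes at 0. The ncRNAs themselves behaved alike, with 152 of 154 fully overlapped ncRNAs listed at 0. Of 4284 coding genes with no overlap, 2 were at 0.

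Partial overlap went with intermediate levels. The median was 65.8 RPKM for genes with no overlap and 41.6 RPKM where over 0% to 10% of the coding bases were shared. It was 48.9 RPKM at over 10% to 25%, 25.5 RPKM at over 25% to 50% and 14.7 RPKM at over 50% to 75%. At over 75% to 90% it was 7.07 RPKM, and at over 90% and under 100% it was 0.630 RPKM. Divided by the unshared length in place of the whole length, the medians were 41.9 RPKM at over 0% to 10% and 60.2 RPKM at over 10% to 25%. They were 39.2 RPKM at over 25% to 50%, 40.6 RPKM at over 50% to 75%, 43.7 RPKM at over 75% to 90% and 17.7 RPKM at over 90%. No source used here states how reads in shared bases were assigned or whether strand was used, and the part of this step in the zeros was not tested. Levels of overlapped genes are therefore given here as listed values, and the levels described by group are those of the 4284 genes with no overlap unless another number is stated.

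**Figure D3:**
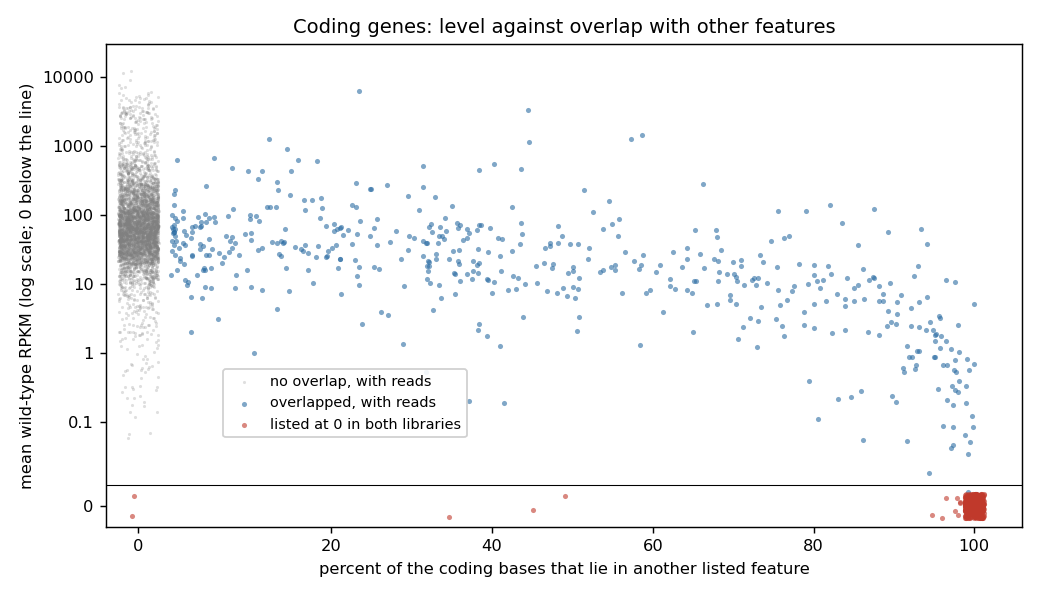
Mean WT RPKM of each coding gene (log axis, with genes listed at 0 drawn below the line) against the percent of its coding bases that lie in another listed feature. Genes with no overlap stand in a column of their own at the left, spread sideways for sight like the genes at 0, and 339 of 341 genes at 100% lie at 0.

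Coding genes with little or no expression in growing cells were few. Under 1 RPKM in both WT libraries were 437 coding genes, of which 402 overlapped another feature and 35 did not. These 35 were 0.817% of the 4284 genes with no overlap, and 194 were under 10 RPKM in both. The 35 include ura4, which was listed at 0 in all 6 libraries, and whether these strains carry the gene was not tested. Of the 35 silent genes, 29 had no intron (82.9%, against 52.9% of all coding genes with no overlap), 19 were under 500 bases (54.3%, against 16.1%) and 19 lay within 100 kb of a chromosome end (54.3%, against 4.04%). Chromosome I held 15, chromosome II 16 and chromosome III 2 of them, and 2 were on the separate mating-type contig. Any gap between coding segments counted as an intron here, also short ones, with 8 bases in all in SPBC1348.11 and 11 bases in SPBPB21E7.02c.

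Of the 35 silent genes 11 carried a gene symbol, and those with a known role included transporters and enzymes for unusual nutrients, iron uptake genes, silent mating-type copies and genes of meiosis. SPAC869.03c (chrI:5512757-5514742), annotated as a urea transporter, had 0 and 4 reads (0 and 0.116 RPKM). Its neighbour SPAC869.04 (chrI:5511137-5512369), a formamidase-like gene, had 1 and 2 reads (0.0443 and 0.0935 RPKM). Another urea transporter gene, SPBPB8B6.02c on chromosome II, had 0.324 and 0.314 RPKM, and the melibiase mel1, which splits the sugar melibiose, had 0.250 and 0.352 RPKM. All 4 lie within 100 kb of an end of chromosome I or II. The iron genes were str3 (0.289 and 0.0609 RPKM), which takes up iron bound to siderophores, and its neighbour shu1 (0.321 and 0.254 RPKM), which takes up heme.

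Other silent genes with a symbol belonged to sexual differentiation. The silent mating-type copy mat2-Pi had 1 read in each library (0.114 and 0.120 RPKM). Mat3-Mm, which is listed on chromosome II and again on the mating-type contig, had 0 and 1 read in both places. Both listings count among the 35 silent genes and the 11 with a symbol. Reads of copies that share sequence cannot be assigned to 1 locus, so these low values are uncertain. Mug96, named for a rise in meiosis, had 0 and 1 read (0 and 0.131 RPKM), and meu15 had 0.964 and 0.382 RPKM. The meiosis inducer mei3, whose product blocks the kinase Pat1, had 0.977 and 0.387 RPKM. The meikin moa1, which orients sister centromeres in meiosis, had 0.421 and 0.9996 RPKM, just inside the line of 1 RPKM, whereas the hexose transporter ght7 (1.16 and 0.444 RPKM) and mug116 (0.669 and 1.27 RPKM) fell just outside it. Mei3 had 8 and 3 reads and moa1 had 4 and 9 reads, so counting error alone can carry such a gene across the line.

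Genes of sexual differentiation as a whole were low but seldom empty. In RNA of a whole culture, few cells that express a gene and little RNA in every cell cannot be told apart. The 21 meiosis genes with no overlap had a median of 6.03 RPKM (5.27 RPKM in WT replicate 1 and 5.78 RPKM in WT replicate 2), with 15 under 10 RPKM and 2, moa1 and mei3, under 1 RPKM. Meu13, which pairs homologous chromosomes, had 1.68 and 2.21 RPKM, the spore formation regulator spo5 had 1.28 and 2.67 RPKM, and the meiotic cohesin rec8 had 2.04 and 4.65 RPKM. At the other end mes1, which lets cells enter the second meiotic division, had 72.8 and 86.3 RPKM, and was the 1 meiosis gene above the coding median. Spore formation genes had a median of 23.3 RPKM over 12 genes, with spo20, a lipid transfer protein that growing cells also need, far above them at 356 and 340 RPKM. The 83 genes with mug or meu names, given for a rise in meiosis, had a median of 26.4 RPKM, and 10 of them lay above the coding median.

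Mating genes gave a mixed picture. The 10 pheromone pathway genes with no overlap had a median of 16.98 RPKM. Genes of M cells and genes of P cells were both listed with reads: the M-factor gene mfm2 had 49.0 and 41.8 RPKM and the P-factor receptor mam2, made by M cells, 29.2 and 28.1 RPKM, while the M-factor receptor map3, made by P cells, had 48.7 and 45.4 RPKM and the P-factor gene map2 3.15 and 5.33 RPKM. The mating-type gene mat1-Mc had 26.7 and 28.9 RPKM and mat2-Pc 16.7 and 9.04 RPKM. The copy mat3-Mc, with 27.8 and 29.9 RPKM, shares its sequence with mat1-Mc, so the reads cannot be assigned to 1 locus. The aspartic protease gene sxa1, listed with the pheromone genes, was high at 416 and 464 RPKM. Among regulators of sexual differentiation, mei2 had 6.69 and 5.65 RPKM and the kinase pat1, which keeps meiosis off, 9.51 and 8.36 RPKM, while the inhibitor of the early stages pac2 had 483 and 478 RPKM.

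Nutrient genes differed by nutrient. Iron uptake genes had a median of 9.68 RPKM over 11 genes, although the siderophore synthesis gene sib2 had 79.6 and 88.7 RPKM. Copper uptake stood out on the high side, since ctr4, a subunit of the high-affinity copper transporter, had 691 and 600 RPKM, and its partner ctr5, of which 18.2% is overlapped, had 625 and 599 RPKM. Thiamine genes had a median of 18.4 RPKM over 5 genes, and nmt1, the promoter of which is a common tool for thiamine control, could not be read because it is fully overlapped. Of the genes on the phosphate list, pho1 and pho84 were fully overlapped and listed at 0. The glycerophosphodiester transporter gene tgp1, which is partly overlapped, had 10.9 and 10.3 RPKM. The 1 gene of the list with no overlap had 23.8 and 23.6 RPKM. The list also holds the acid phosphatase gene pho4, of which 1.51% is overlapped, with 112 and 112 RPKM, above the coding median. Whether phosphate controls pho4 was not tested. Genes repressed by glucose had a median of 38.2 RPKM over 6 genes, with invertase inv1 at 41.1 and 41.9 RPKM and ght8, already named, the only one above the coding median. Stress genes had a median of 205 RPKM over 15 genes, led by hsp9 (1828 and 1660 RPKM) and the peroxiredoxin tpx1 (1403 and 1447 RPKM), and sulfiredoxin srx1 was the lowest with 5.68 and 5.84 RPKM.

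Repeated gene families were expressed at low to middling levels, with the caution that their members share sequence. The wtf genes, a family of spore killers that act in meiosis, had a median of 11.9 RPKM over 23 genes with no overlap, and 1 of them, wtf14 (88.7 and 93.7 RPKM), lay above the coding median. The 13 copies of the Tf2 retrotransposon, which are nearly identical to each other, had a median of 76.5 RPKM in WT replicate 1 and 60.4 RPKM in WT replicate 2, and listed values went from 11.2 and 8.44 RPKM for Tf2-12 to 157 and 129 RPKM for Tf2-2. Cell surface flocculins had a median of 15.04 RPKM over 6 genes, with pfl2 far above at 194 and 242 RPKM.

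Short genes were higher than long genes. Across the 4284 coding genes with no overlap the Spearman correlation of RPKM and coding length was -0.28 (-0.28 in WT replicate 1 and -0.29 in WT replicate 2), and across all 5155 it was -0.21. It was -0.24 without the 126 ribosomal protein genes. These points are genes of the same 2 libraries and are no replicates. The median was 101 RPKM for 198 genes of 1 to 300 bases, 114 RPKM for 492 genes of over 300 to 500 bases, 71.1 RPKM at over 1000 to 1500 bases, 43.97 RPKM at over 2000 to 3000 bases and 22.9 RPKM for 61 genes over 5000 bases. The 5 longest coding genes all lay under the coding median: sib1 (14775 bases), a siderophore synthetase, had 8.82 and 7.53 RPKM, mdn1 (14154 bases), a ribosome assembly ATPase, had 13.8 and 10.4 RPKM, the dynein heavy chain dhc1 (12591 bases) had 4.46 and 4.16 RPKM, the glycoprotein gene SPBPJ4664.02 (11916 bases) had 2.99 and 3.06 RPKM, and tra1 (11100 bases), of the SAGA complex, had 9.46 and 8.23 RPKM. Dhc1 and tra1 are partly overlapped.

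Genes with introns were higher than genes without introns, and mostly so among short genes. The 2016 genes with introns and no overlap had a median of 71.9 RPKM, and the 2268 without introns had a median of 59.3 RPKM, a difference of 0.28 on the log2(RPKM + 0.5) scale (0.28 in WT replicate 1 and 0.25 in WT replicate 2). Over all 5155 coding genes the difference was 0.36. For genes of up to 500 bases the medians were 154 RPKM with introns and 77.0 RPKM without, a difference of 0.99, and of 0.84 when ribosomal protein genes were left out. It was 0.05 at over 500 to 1000 bases, 0.12 at over 1000 to 2000 bases and 0.01 over 2000 bases. The number of introns beyond the first made no steady trend, with medians of 73.2 RPKM for 1 intron, 72.0 RPKM for 2, 75.2 RPKM for 3, 59.0 RPKM for 4 and 42.2 RPKM for 6 or more. The genes with most introns were the telomerase subunit trt1 (15 introns, 29.6 and 29.6 RPKM), the DNA repair gene rdh54 (14 introns, 17.9 and 14.96 RPKM) and the histone deacetylase clr6 (13 introns, 105 and 110 RPKM).

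The chromosomes differed little, and their ends differed much. Chromosome I, with 45.4% of the coding genes, held 44.1% and 44.5% of the coding reads, chromosome II, with 36.4%, held 38.1% and 37.9%, and chromosome III, with 17.98%, held 17.7% and 17.5%. The medians of genes with no overlap were 64.6 RPKM on chromosome I, 70.1 RPKM on chromosome II and 58.8 RPKM on chromosome III. Within 100 kb of an end of the assembly the median was 27.9 RPKM for 173 genes, against 67.4 RPKM for the other 4102 genes, a difference of -1.26 on the log2 scale (-1.23 in WT replicate 1 and -1.24 in WT replicate 2). Over all coding genes, overlapped ones included, the difference was -1.85. The median was 8.08 RPKM for the 34 genes within 25 kb, 22.9 RPKM at 25 to 50 kb, 44.4 RPKM at 50 to 75 kb, 50.3 RPKM at 75 to 100 kb, 61.4 RPKM at 100 to 200 kb and 69.5 RPKM over 1000 kb from an end.

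The low ends were those of chromosomes I and II. The medians within 100 kb were 10.2 RPKM at the left and 13.6 RPKM at the right end of chromosome I, and 11.8 RPKM at the left and 11.2 RPKM at the right end of chromosome II. On chromosome III, whose ends are known to carry the ribosomal RNA repeats, they were 52.8 RPKM at the left and 65.6 RPKM at the right, and no gene there was under 1 RPKM in both libraries. High genes also lay near ends. The ribosomal protein gene rpl35 had 4365 and 4295 RPKM, SPAC922.04, of unknown function, had 1492 and 1563 RPKM, the ribosomal stalk gene rpp103 had 969 and 998 RPKM, and the amino acid synthesis gene SPCC1827.06c had 835 and 735 RPKM.

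**Figure D4:**
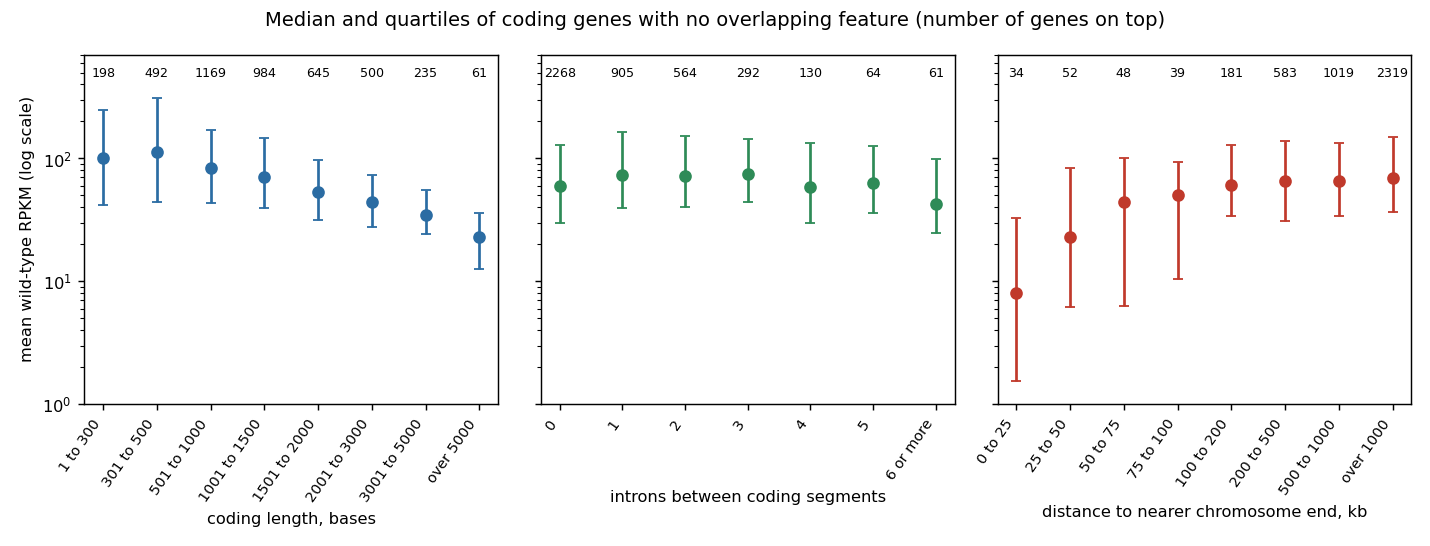
Median (points) and quartiles (bars) of the mean WT RPKM (log axis) of coding genes with no overlapping feature, by coding length, by intron number and by distance to the nearer chromosome end, with the number of genes above each point. The medians go down from 114 RPKM to 22.9 RPKM over the length classes, and from 69.5 RPKM far from an end to 8.08 RPKM within 25 kb.

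The WT libraries agreed closely for most genes. Over 6202 features with reads in either library the Pearson correlation of log2 RPKM was 0.994. Of 4567 coding genes at 5 RPKM or more, 97.6% differed by less than 0.5 on the log2 scale, the SD of the log2 ratio was 0.21, and 20 differed by more than 1, 18 of them higher in WT replicate 2. For genes with 1000 to 10000 reads the median absolute log2 ratio was 0.086, against 0.031 that counting error alone would give. This comparison served only to check whether both labels hold the same library, and the values differ.

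Among features at 5 RPKM or more, the largest gaps belonged to genes of uracil breakdown and salvage. The GTP cyclohydrolase urg1, a gene known for its fast induction by uracil, had 262 and 1981 RPKM, a ratio of 7.56 of WT replicate 2 over WT replicate 1. Its neighbours urg2 (672 and 3153 RPKM) and urg3 (236 and 663 RPKM), the uracil phosphoribosyltransferase uck2 (134 and 620 RPKM) and the uridine ribohydrolase urh1 (39.9 and 157 RPKM) moved the same way. The neighbouring uracil transporter fur4 (36.2 and 38.9 RPKM) did not share the gap, and neither did genes of uracil synthesis, such as ura3 (434 and 373 RPKM) and ura5 (303 and 295 RPKM). The other strains also showed an uneven picture. Urg1 had 142 and 246 RPKM in mug174Δ cells and 131 and 1186 RPKM in red1Δ cells, against 262 and 1981 RPKM in WT cells, and urg2 had 315 and 487 RPKM in mug174Δ cells and 325 and 2275 RPKM in red1Δ cells, against 672 and 3153 RPKM in WT cells. The value was higher in replicate 2 of every strain.

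Genes of nitrogen starvation and nitrogen uptake were also higher in WT replicate 2. The nitrogen starvation list had a median of 34.0 RPKM in WT replicate 1 and 64.0 RPKM in WT replicate 2, with 36.4 and 88.5 RPKM for isp7, 28.9 and 70.3 RPKM for the amino acid permease per1, 31.7 and 71.4 RPKM for isp4 and 18.4 and 39.97 RPKM for the ammonium transporter amt1. Fewer genes went the other way. The biotin transporter vht1 had 655 and 334 RPKM, SPCC417.16, annotated as a subunit of an NADH:ubiquinone reductase, had 691 and 268 RPKM, and the meiotic recombination gene rec15 had 9.56 and 2.97 RPKM. What differed between the cultures was not tested.

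**Figure D5:**
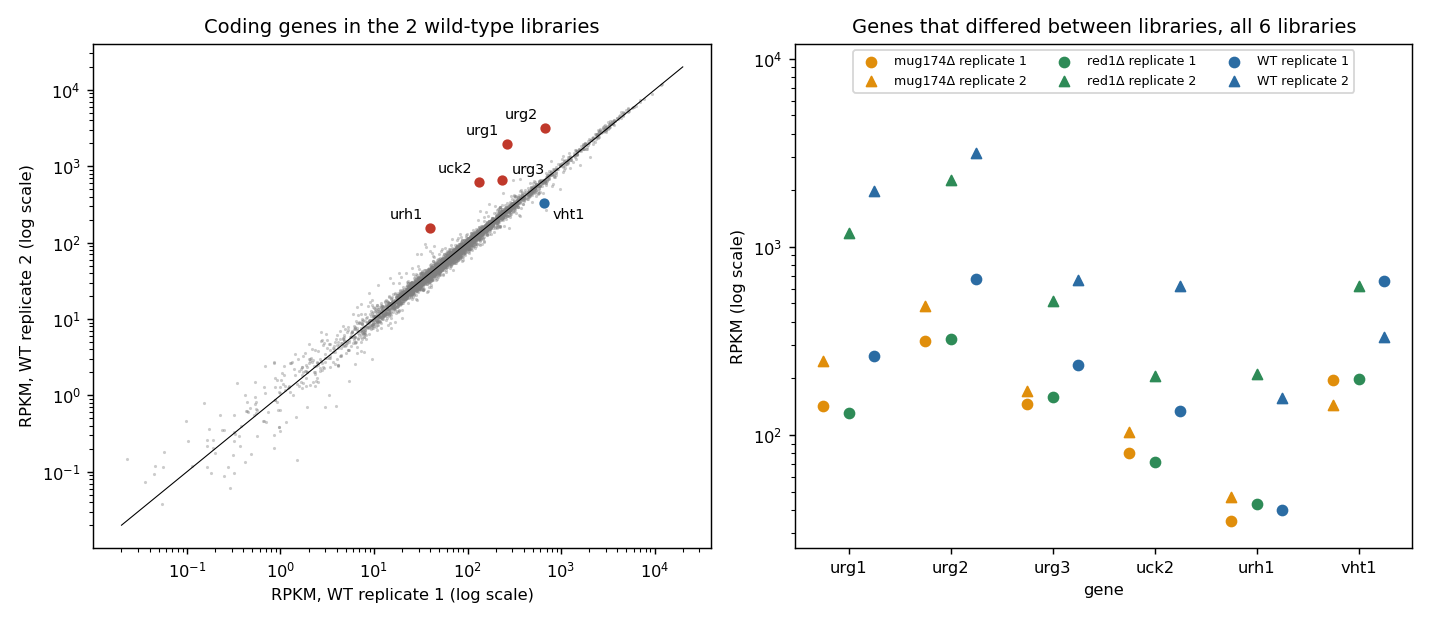
Left, RPKM of coding genes in WT replicate 2 against WT replicate 1 on log axes with the line of equality. Right, RPKM (log axis) of the 6 labelled genes in every library, with circles for replicate 1 and triangles for replicate 2, where urg1 reaches 1981 RPKM in WT replicate 2 and 1186 RPKM in red1Δ replicate 2.

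Finally, the wild-type pattern was set against both deletion strains to see which of its features they shared. Levels were tested with limma on log2(RPKM + 0.5), with Benjamini-Hochberg adjusted p under 0.05 over 5949 features. Both comparisons use the same 2 WT libraries. In mug174Δ cells 19.8% of the features rose and 5.53% fell, and in red1Δ cells 48.4% rose and 7.33% fell. The median log2 change over all features was 0.18 in mug174Δ cells and 0.35 in red1Δ cells. After scaling each library by its median ratio, the counts for coding genes were 438 raised and 538 lowered in place of 981 and 292 in mug174Δ cells, and 625 raised and 1050 lowered in place of 2215 and 391 in red1Δ cells, so the balance of higher and lower genes rests on the scaling. With 1 library left out, the count of coding genes raised in mug174Δ cells was 8 without mug174Δ replicate 1, 29 without mug174Δ replicate 2, 34 without WT replicate 1, 49 without WT replicate 2, and 1528 and 1531 without red1Δ replicate 1 and without red1Δ replicate 2. The count lowered in mug174Δ cells was 12, 16, 12 and 21 in the first 4 of these cases. The count raised in red1Δ cells was 1252 without WT replicate 1 and 1034 without WT replicate 2, and the count lowered was 137 and 126.

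The share of ribosomal protein genes in the coding reads was 12.7% and 12.8% in mug174Δ cells and 13.5% and 10.6% in red1Δ cells, against 18.2% and 19.4% in WT cells. Over all features, 19.8% rose and 5.53% fell in mug174Δ cells, and 48.4% rose and 7.33% fell in red1Δ cells. Of the 129 ribosomal protein genes tested, 68 fell and 0 rose in mug174Δ cells, with a median log2 change of -0.55. At an unadjusted p under 0.05 (limma), 104 of them were lower and 1 was higher. The calls changed with the libraries in the fit. Of the 129, 1 fell when mug174Δ replicate 1, mug174Δ replicate 2, WT replicate 1 or WT replicate 2 was left out, and 122 when either red1Δ library was, while the median stayed between -0.59 and -0.52. In red1Δ cells 112 fell and 2 rose, with a median of -0.63, and 21 fell without WT replicate 1, 12 without WT replicate 2 and 73 without either mug174Δ library. The genes that rose were the low paralog rpl3002 (252 and 236 RPKM in mug174Δ cells and 1099 and 620 RPKM in red1Δ cells, against 245 and 261 RPKM in WT cells) and rpl102, which is 77.0% overlapped and whose change of 0.34 was below the median change of all features. Glycolysis took 12.6% and 13.1% of the coding reads in mug174Δ cells and 10.1% and 8.11% in red1Δ cells, against 7.74% and 7.80% in WT cells. Of its 14 genes tested, 5 rose in mug174Δ cells, namely tdh1 (log2 change 1.07 ± 0.28, SE, limma adjusted p = 0.0396), pgk1, eno101, pyruvate kinase pyk1 and pdc201, with a median log2 change over the list of 0.71 against 0.18 for all features. Of the 14, 0 passed the limma test without mug174Δ replicate 1, mug174Δ replicate 2, WT replicate 1 or WT replicate 2, 9 rose without either red1Δ library, and 1 rose after median ratio scaling. In red1Δ cells pdc201 alone of the 14 rose (1.402 ± 0.12, limma adjusted p = 0.00107), and the median of 0.24 lay below that of all features, though 4 rose without red1Δ replicate 1 and 7 without red1Δ replicate 2.

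Meiosis genes were higher in red1Δ cells than in WT cells. The median over the 21 genes with no overlap was 10.5 and 10.1 RPKM in mug174Δ cells and 59.97 and 70.7 RPKM in red1Δ cells, against 5.27 and 5.78 RPKM in WT cells. Over all features, 48.4% rose in red1Δ cells and 19.8% in mug174Δ cells, with median log2 changes of 0.35 and 0.18. Of 23 meiosis genes tested, 23 rose in red1Δ cells, with a median log2 change of 2.99. Among them mei3 (1.94 and 4.66 RPKM in red1Δ cells) and moa1 (17.9 and 23.2 RPKM) passed the filter on low values only through red1Δ values. The rise of mei3 and moa1 is therefore no separate evidence. Outside red1Δ cells, moa1 reached 1 RPKM only in mug174Δ replicate 2, with 1.24 RPKM. The median lay between 2.99 and 3.63 with any 1 library left out, and 20 rose after median ratio scaling. In mug174Δ cells 14 rose, with a median of 0.76, and 2 rose without mug174Δ replicate 1, 3 without mug174Δ replicate 2, 5 without either WT library, and 15 of 22 tested without either red1Δ library.

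The ribosomal RNA share was 4.71% and 3.85% in mug174Δ cells and 2.87% and 2.97% in red1Δ cells, against 6.25% and 5.93% in WT cells. The part of the library preparation in these differences was not tested. For such shares, 2 libraries against 2 cannot give a two-sided exact permutation p below 0.333.

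The relations of level to gene structure held in every strain. The Spearman correlation of level and length for genes with no overlap was -0.31 and -0.30 in mug174Δ cells and -0.29 and -0.31 in red1Δ cells, against -0.28 and -0.29 in WT cells, and the difference between genes with and without introns was 0.31 and 0.30 in mug174Δ cells and 0.23 and 0.18 in red1Δ cells, against 0.28 and 0.25 in WT cells. Genes within 100 kb of an end were lower than other genes by more in the deletion strains, with -1.88 and -1.71 in mug174Δ cells and -2.09 and -1.47 in red1Δ cells, against -1.23 and -1.24 in WT cells. Of 176 coding genes tested there, 28 rose and 30 fell in mug174Δ cells (15.9% and 17.05%), against 953 and 262 of 4571 elsewhere (20.8% and 5.73%). In red1Δ cells 43 rose and 42 fell there (24.4% and 23.9%), against 2172 and 349 elsewhere (47.5% and 7.64%). These counts come from the fit with all 6 libraries. They were not repeated with 1 library left out or after median ratio scaling. Of the 357 coding genes listed at 0 in both WT libraries, 344 were at 0 in all 6 libraries.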

How the data were processed

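The authors deposited 1 table of RPKM values for 7001 features in 6 libraries (mug174Δ, red1Δ and wild type, 2 replicates each), with coordinates on ASM294v2. The labels name ribosomal RNA depletion and a directional kit, the study's methods name poly(dT) enrichment, HISAT2 and a filter on intronic reads, and STAR 2.5.3a, StringTie 1.3.1c and FastQC 0.11.6 stand in the processing notes of the submitters. Which of these made the deposited RPKM values, the read counter and the use of strand could not be learned. The log2 fold changes and p-values of the authors' own comparisons (4 columns in the deposited table) were not used. Other columns of per-sample values numbered 0.

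RPKM times length gave whole reads within 0.01 for 100% of values, and depth is taken from these reads. Length equalled the summed listed segments for 6992 of 7001 features, and 5126 of 5155 coding lengths were multiples of 3, so lengths are coding lengths. Overlap was the share of a feature's bases inside any other listed feature on either strand. By identifier, 6851 features matched RefSeq (ASM294v3), and 5027 of 5143 matched coding genes had identical coding segments. RefSeq gave the promoters (150 bases) and introns. Intron number was counted from listed segments. Every gap of at least 1 base counted, so gaps too short for an intron are included, such as that of 2 bases in pdc101.

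Differences between strains were tested with limma 3.58.1 (R 4.3.3) on log2(RPKM + 0.5) for 5949 features with at least 1 RPKM in 2 libraries, with Benjamini-Hochberg adjustment. Such p-values set a difference of means against the spread between these samples, which the fit shares over all strains. Shares were compared with an exact permutation test. Other steps used Python 3.11.15, pandas 2.3.3, numpy 2.4.6, scipy 1.17.1 and matplotlib 3.10.9. The scripts were tested on simulated data.

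Named genes were the 15 highest coding genes and 3 highest features of each other class, the longest at 0 and the lowest of at least 1000 bases, up to 3 highest and 3 lowest of each list, the 5 with most introns, the 5 longest, 5 highest and 5 lowest within 100 kb of an end, and 5 features with the largest gap between WT libraries in each direction. The same picks among genes with no overlap, and further genes of the lists and of uracil metabolism, were chosen after their values were seen. The members and lists were chosen with earlier results of these data known. Alternatives covered the unit of a share, filters on low values, pseudocount, scaling, distance to an end, left-out libraries and a replicate block.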

Additional observations from a re-analysis of the deposited data

How the results depend on the processing

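The coding share of wild-type reads was 95.8% by summed RPKM and 98.5% without ribosomal RNA, and the ribosomal RNA share was 2.74% by summed RPKM. The 100 highest coding genes held 38.4% by summed RPKM. Over all coding genes the correlation of level and length was -0.21. It was -0.31 at 1 RPKM or more in both libraries, -0.22 for lengths of at least 500 bases and -0.17 without ribosomal protein genes, and the intron difference of 0.36 was 0.23 at 1 RPKM or more. The difference at chromosome ends, -1.85 over all coding genes, was -2.13 within 50 kb, -0.67 within 200 kb, and -1.80 to -1.68 with 1 WT library left out. Chosen after seeing the data, the limit to genes with no overlap gave 33.5% for the 100 most read genes, 35 genes under 1 RPKM, -0.28 for length, 0.28 for introns and -1.26 at ends, and chromosomes I and II alone gave -2.78 at ends. None of these values changed sign.

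For mug174Δ cells, 566 coding genes were raised and 159 lowered without a filter on low values, 1534 and 560 with only WT and mug174Δ libraries in the fit, and 438 and 538 with median ratio scaling, which gave 625 and 1050 for red1Δ cells. With 1 library left out, the counts ranged from 8 to 1531 raised and 12 to 556 lowered in mug174Δ cells, and from 1034 to 2444 raised and 126 to 519 lowered in red1Δ cells. The cause was not tested. With the replicate block, 1159 coding genes were raised and 332 lowered in mug174Δ cells, and 2325 and 444 in red1Δ cells. Deviations of same-numbered samples correlated at 0.19 for mug174Δ and WT, 0.23 for red1Δ and WT, and 0.06 for mug174Δ and red1Δ. The library codes in the labels run in sets by replicate number, but no label says that a number marks a shared batch or day.

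With 2 libraries a strain, an SD rests on 2 values. How shared reads were counted, and its part in the levels of overlapped genes, was not tested, and reads of genes under 1 RPKM are too few to rank these genes. The sources describe the library preparation in 2 ways. Its part in the ribosomal RNA and coding shares, and in the low tRNA, snRNA and mitochondrial reads, was not tested. Left-out libraries and scaling for the ribosomal protein, glycolysis and meiosis lists were chosen after seeing the data.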

Other observations

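Genes often mutated as selection markers were read alongside ura4. Leu1 had 837 and 801 RPKM, ade6 131 and 129 RPKM, his2 322 and 312 RPKM, and lys1 161 and 143 RPKM in WT cells. Of the mitochondrial genes, var1 had 1.198 and 1.60 RPKM, cox1 1.02 and 0.964 RPKM and atp6 0.564 and 2.31 RPKM in WT cells.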
